A study of Homo sapiens with 18 samples.

Results

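NTX-301 was compared with its solvent in MOLM-13, a human monocytic acute myeloid leukaemia line that carries an internal tandem duplication of FLT3 and a KMT2A fusion. The members are the 3 samples labelled NTX-301 and the 3 labelled dimethyl sulfoxide (DMSO) of this line, 6 of the 18 samples of the series. All were taken on day 2, after 48 h, from cells in RPMI1640 with fetal bovine serum. The 3 MOLM-13 samples exposed for the same time to decitabine (DAC), a cytidine analogue that traps DNA methyltransferases, were used to compare the drugs. They also helped to estimate the spread in the comparison with DMSO and were part of the mean log2 value of each gene. The labels name 15 nM for MOLM-13, in wording that may give the dose of both drugs or of DAC alone, so a match in dose is not certain. The other 9 samples, from HL-60 cells, were not used here. The samples of a group were wells of 1 culture line plated in triplicate, and the labels name no separate cultures, so each p-value measures the spread between these wells.

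Inhibitors of DNA methyltransferase 1 (DNMT1) act during DNA replication: methyl groups are not copied to the new strand, and methylation is lost over divisions. Loss of methylation is known to switch on silenced genes, repeats and an interferon response. DNA adducts and replication stress are known to activate p53, which halts division partly through the CDK inhibitor CDKN1A. In myeloid leukaemia cells this class of drugs is known for slowing growth and for shifting cells towards monocyte or granulocyte traits.

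RNA was measured by stranded total RNA sequencing, and each sample has 1 normalized log2 value for each of 17475 genes. A difference is given as NTX-301 minus DMSO on this log2 scale, with the standard error (SE) of the limma fit, and a gene is called when its adjusted p is under 0.05. Differences were small among low genes, with a median size of 0.00452 for mean log2 values under 3 against 0.133 at 12 or above. The read depth is unknown, and precision rests on the 3 wells: the median over genes of the SD was 0.0385 in DMSO and 0.0366 in NTX-301. The first principal component held 60.5% of the variance and set the DMSO samples (-15.03 to -11.91) apart from the NTX-301 samples (7.15 to 9.85). All 11 listed of 12 markers of a myeloid leukaemia line had mean log2 values of at least 8, and CD14 was not listed. Of the defining genes of other cell types, MS4A1, CD3E, CD2, PF4, EPCAM and COL1A2 were not listed, while HBA2, HBB, CD4, KRT18, PRG2 and EPX had values of at least 8. CD4, which monocytes also express, was 1 of 2 listed T cell markers, and both were called higher.

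Against DMSO, 45.1% of the genes were called, 20.3% higher and 24.8% lower. These shares are the background over all genes, but they depended on level. The share called lower was 2.66% at mean log2 values of 5 to 8, 37.9% at 10 to 12 and 55.3% at 12 or above. The share called higher was 27.2%, 20.2% and 14.3% in these classes. The count of a list is thus to be read against the share at its level. Centring every sample on its median moved the median of all genes from 0.0034 to -0.0267 and changed the counts from 3543 higher and 4337 lower to 2735 and 5760. Most differences were small: 169 called genes were higher and 28 lower by at least 0.5, and 5 were higher and 0 lower by at least 1. The median difference over all genes was 0.0034, and lists are read against it. At mean log2 values of 10 to 12 it was -0.049, and at 12 or above -0.098. A difference in a bulk sample can come from fewer cells of a kind or from less RNA per cell, and these cannot be told apart.

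**Figure D1:**
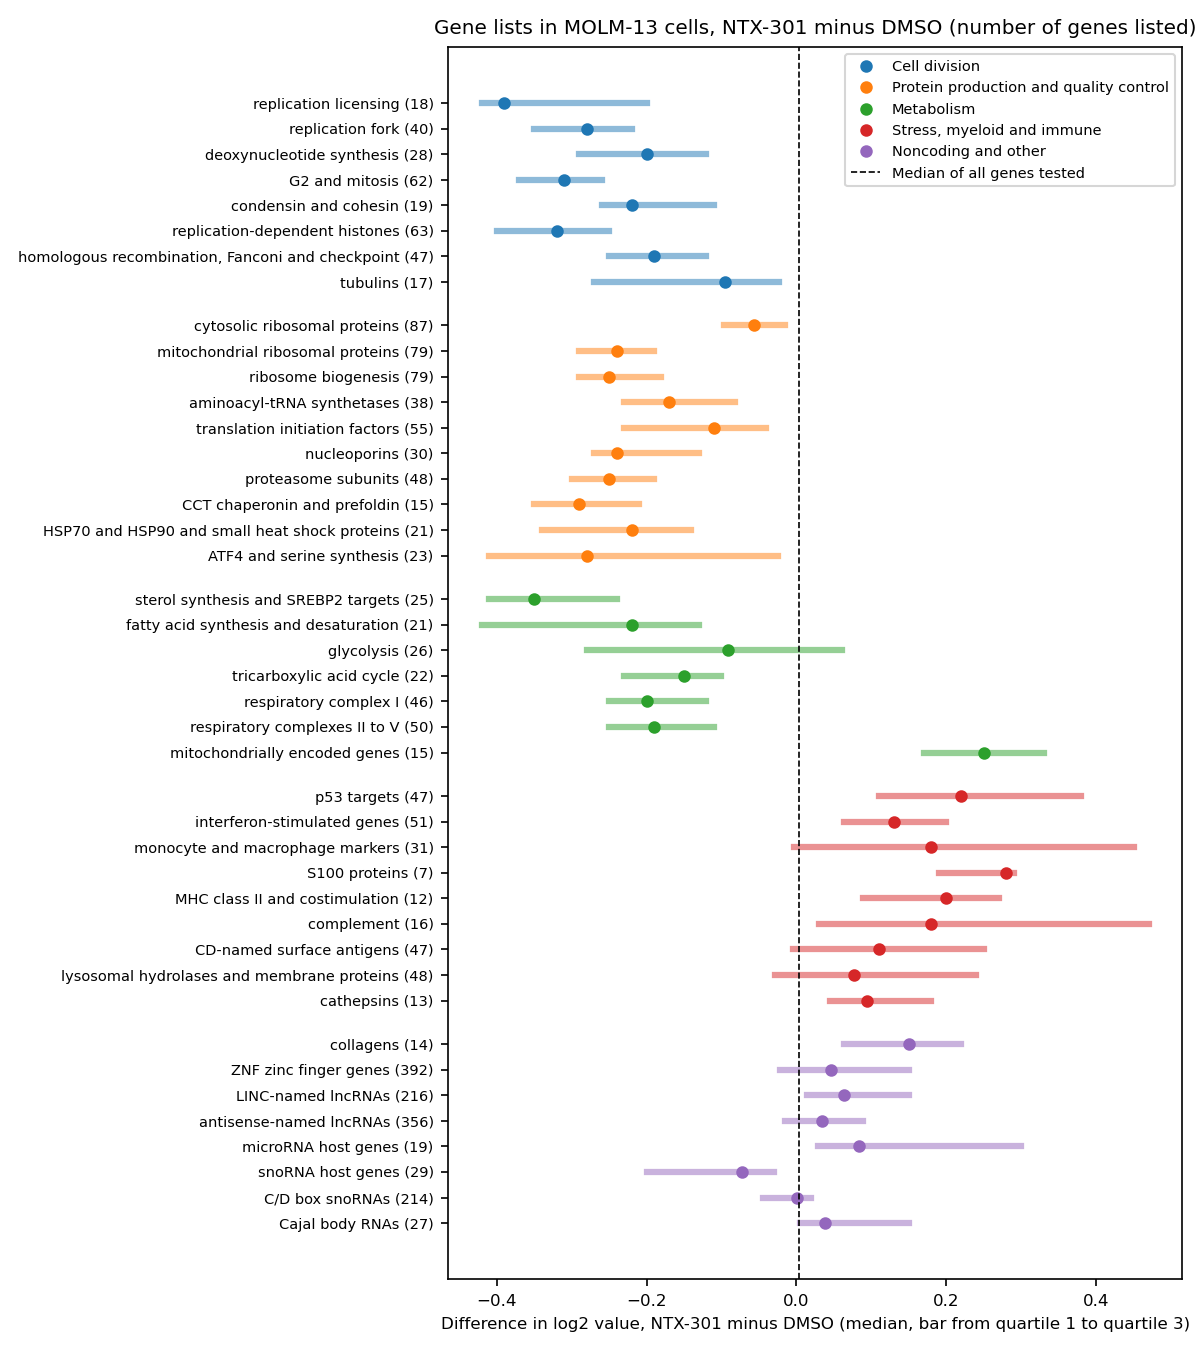
Median difference in log2 value (x axis, NTX-301 minus DMSO) of 42 gene lists, with bars from the first to the third quartile over genes and the number of genes listed in parentheses. Replication, mitosis, histone and sterol lists lie near -0.3 or below, while p53, S100 and mitochondrially encoded genes lie above 0.2.

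Genes for copying DNA fell. The minichromosome maintenance (MCM) helicase and its loaders license origins of replication, and 16 of 18 licensing genes fell, with a median of -0.39. MCM6, a helicase subunit, had log2 values of 14.32, 14.35 and 14.36 in DMSO and 13.88, 13.83 and 13.85 in NTX-301. The groups were far apart, a difference of -0.49 (SE 0.026, adjusted p = 1.82e-07) or 0.711-fold. MCM2, its partner in the ring, differed by -0.48, the loader CDC6 by -0.44 and MCM10 by -0.43. The 2 members not called were ORC4, of the origin recognition complex, at -0.11, and MCM9, a helicase of repair, at 0.019.

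At the fork, 37 of 40 genes fell and 1 rose, with a median of -0.28. GINS2, which joins the helicase to the polymerase, had values of 11.68, 11.76 and 11.73 in DMSO and 11.16, 11.27 and 11.20 in NTX-301, a difference of -0.51 (SE 0.034, adjusted p = 8.43e-07). The flap nuclease FEN1 differed by -0.43, and the sliding clamp PCNA, which p53 can also induce, by -0.26. Of 28 genes that make or convert deoxynucleotides 23 fell and 2 rose, with a median of -0.20. Thymidylate synthase (TYMS) did not pass the test: its values were 13.13, 13.06 and 13.11 in DMSO and 13.14, 13.07 and 13.03 in NTX-301, which overlap (difference -0.018, adjusted p = 0.649).

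All 62 genes of the G2 and mitosis list fell, with a median of -0.31 and a range from -0.535 to -0.0868. Cyclin B1 (CCNB1), the partner of CDK1, had values of 13.67, 13.79 and 13.74 in DMSO and 13.23, 13.25 and 13.23 in NTX-301, a difference of -0.50 (SE 0.03, adjusted p = 4.9e-07). CDC25A, the phosphatase that activates CDKs, showed the largest fall of the list at -0.54. The spindle proteins HMMR and DLGAP5 differed by -0.47 and -0.45, and Polo-like kinase PLK1 by -0.26. MKI67, the gene of the Ki-67 proliferation antigen, was near the small end at -0.10 (adjusted p = 0.00583), and quantile normalization gave it 0.023. Of the broader kinesin family, which holds both mitotic and transport motors, 13 of 28 fell and 3 rose, or 15 and 1 after centring. The 46.4% that fell compare with 37.9% of all genes at mean log2 values of 10 to 12. KIF14, a motor of cytokinesis, differed by -0.42. Of 19 condensin and cohesin genes 16 fell and 1 rose, but 10 fell and 3 rose after quantile normalization.

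The promoters of these genes share short sequence elements. RefSeq promoter windows (GRCh38.p14) could be matched by gene ID for 10050 of 12269 protein-coding genes, and the 250 bases before each start were searched on both strands. The cell cycle homology region (CHR, TTTGAA) was present in 22 of 51 promoters of G2 and mitosis genes (43.1%), in 0 of 16 licensing genes and in 0 of 34 fork genes, against 8.86% of protein-coding genes tested. The E2F letters TTTCCCGC or TTTGGCGC were in 31.2% of licensing and 20.6% of fork promoters, against 3.16%. The CCAAT box (CCAAT) was in 64.7% of G2 and mitosis, 68.8% of licensing and 84.5% of 58 histone promoters, against 35.9%; histone promoters also held TTTGAA in 32.8%. Over all 27305 windows of the table, 13.6% held TTTGAA, 1.96% an E2F match and 33% CCAAT. These are letter matches and not measured binding sites. Among all protein-coding genes that fell the shares were close to those of all tested, with TTTGAA in 9.12%, E2F in 4.06% and CCAAT in 40.1%. The other motifs searched were the interferon-stimulated response element (2.17% of those that fell against 2.54% of all), the AP-1 site TGACTCA (1.63% against 2.42%) and the sterol regulatory element (0.0857% against 0.0498%). Of the 2412 protein-coding genes that rose 1890 matched a window, a smaller share than the minimum set for such a comparison, so their motif shares are not given.

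The last 100 bases before the start are shown for 4 mitotic genes, with TTTGAA and CCAAT, or ATTGG for CCAAT on the other strand, in capitals. PLK1 lies at chr16:23678789-23678888 on the plus strand, CCNB2 (cyclin B2) at chr15:59105046-59105145 on the plus strand, HMMR at chr5:163460532-163460631 on the plus strand and PRC1, a spindle midzone protein, at chr15:90994536-90994635 on the minus strand. In each, a TTTGAA begins 20 to 29 bases before the start, and a CCAAT match lies further upstream. The 4 were chosen by hand, and other members of the list differ. The TTTGAA nearest the start begins 161 bases before it in CDK1 and 247 in SPC25, and CCNB1 has none in the bases searched. CCNB2 differed by -0.37 and PRC1 by -0.39 between NTX-301 and DMSO.
PLK1: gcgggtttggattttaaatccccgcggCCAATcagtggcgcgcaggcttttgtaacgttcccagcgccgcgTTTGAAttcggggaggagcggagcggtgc
CCNB2: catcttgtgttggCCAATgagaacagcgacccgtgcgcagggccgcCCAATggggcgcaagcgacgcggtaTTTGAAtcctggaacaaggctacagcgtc
HMMR: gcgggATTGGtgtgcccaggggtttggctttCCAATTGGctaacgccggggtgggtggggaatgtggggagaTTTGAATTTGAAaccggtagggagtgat
PRC1: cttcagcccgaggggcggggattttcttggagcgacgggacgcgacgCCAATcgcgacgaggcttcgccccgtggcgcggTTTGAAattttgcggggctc

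The same stretch is shown for 3 genes with E2F letters and 1 histone gene without them, with E2F matches (TTTGGCGC, or GCGGGAAA for TTTCCCGC on the other strand) and CCAAT matches in capitals. MCM6 lies at chr2:135876444-135876543, GINS2 at chr16:85688955-85689054 and CDC25A at chr3:48188418-48188517, all on the minus strand, and H2AC20 at chr1:149886818-149886917 on the plus strand. H2AC20, a gene of histone H2A, differed by -0.26 (SE 0.052).
MCM6: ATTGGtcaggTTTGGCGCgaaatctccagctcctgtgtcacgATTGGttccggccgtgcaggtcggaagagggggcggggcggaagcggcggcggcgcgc
GINS2: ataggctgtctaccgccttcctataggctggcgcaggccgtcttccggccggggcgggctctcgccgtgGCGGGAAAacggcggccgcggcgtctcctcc
CDC25A: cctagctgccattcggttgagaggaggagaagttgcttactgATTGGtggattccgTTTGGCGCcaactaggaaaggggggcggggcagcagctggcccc
H2AC20: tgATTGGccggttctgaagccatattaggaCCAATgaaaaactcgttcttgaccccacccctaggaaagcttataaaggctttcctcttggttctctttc

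Histone genes that are transcribed in S phase to package new DNA fell as well, 56 of 63 with a median of -0.32 and none called higher. H4C14, one of the copies that encode histone H4, had values of 14.22, 14.31 and 14.30 in DMSO and 13.79, 13.84 and 13.80 in NTX-301, a difference of -0.47 (SE 0.035, adjusted p = 1.88e-06). H4C3 and H4C8 differed by -0.53 and -0.48. H2BU1 showed the largest fall of the list, at -0.75 (SE 0.053), or 0.596-fold. Histone copies are near identical and their reads can be split between them, so values of single copies are uncertain.

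Among repair genes of homologous recombination, the Fanconi pathway and the checkpoint, 37 of 47 fell and 2 rose, with a median of -0.19. The checkpoint kinase CHEK1 differed by -0.39. Of the genes that control entry into S phase 14 of 27 fell (51.9%) and 4 rose, or 12 and 6 after quantile normalization. Among all genes 37.9% fell at mean log2 values of 10 to 12 and 55.3% at 12 or above. The transcription factor E2F1 differed by -0.44 and CDK4 by -0.32, against the rise of CDKN1A given below. UHRF1, which recruits DNMT1 to newly copied DNA, had values of 14.34, 14.26 and 14.31 in DMSO and 13.81, 13.79 and 13.80 in NTX-301, a difference of -0.51 (SE 0.025, adjusted p = 1.64e-07). DNMT1 itself differed by -0.26. DNMT3B was at -0.13 (adjusted p = 0.0219), a call lost without DMSO replicate 2 or NTX-301 replicate 1 or 3, and DNMT3A was at 0.086 (adjusted p = 0.0529). TET2, which oxidises methylcytosine, rose by 0.16 and was the 1 member of 13 in the methylation list called higher, with 5 lower; quantile normalization gave 4 higher and 4 lower.

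Tubulin genes, the subunits of microtubules, fell in 11 of 17 with none higher. TUBA1B, an abundant alpha tubulin, had values of 16.62, 16.72 and 16.69 in DMSO and 16.18, 16.16 and 16.17 in NTX-301, a difference of -0.51 (SE 0.031). TUBA1C differed by -0.47. The 2 are close copies, so reads may be shared between them.

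Genes induced by p53 rose, 34 of 47, with 1 lower and a median of 0.22. CDKN1A, the inhibitor of CDKs, had values of 13.31, 13.26 and 13.25 in DMSO and 14.40, 14.29 and 14.34 in NTX-301, a difference of 1.07 (SE 0.029, adjusted p = 3.64e-09) or 2.09-fold. ZMAT3, an RNA-binding protein, rose by 0.80, TP53INP1 by 0.79, the receptor EDA2R by 0.73 and MDM2, the ligase that degrades p53, by 0.58. The BCL2 family was split, with 6 of 16 higher and 6 lower, or 4 and 8 after centring. The killers of this family that p53 induces, BAX and BBC3 (PUMA), rose by 0.28 and 0.29, and BMF by 0.40. BID differed by -0.35, and PMAIP1 (NOXA), also a p53 target, was at -0.13 and did not pass the test.

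The list of ATF4 targets and serine synthesis went down, 14 of 23 with a median of -0.28. PHGDH, the first enzyme of serine synthesis, had values of 11.93, 11.88 and 11.97 in DMSO and 11.43 in each NTX-301 sample, a difference of -0.50 (SE 0.028, adjusted p = 3.37e-07). PSAT1, the next enzyme, differed by -0.47, the pseudokinase TRIB3 by -0.45, asparagine synthetase (ASNS) by -0.42, ATF4 by -0.39 and SHMT2 by -0.36. The 3 members that rose were DDIT4 (0.49), ATF3 (0.42) and SESN2 (0.37), stress genes that p53 is also known to induce. DDIT4 had values of 8.69, 8.76 and 8.88 in DMSO and 9.22, 9.28 and 9.32 in NTX-301.

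**Figure D2:**
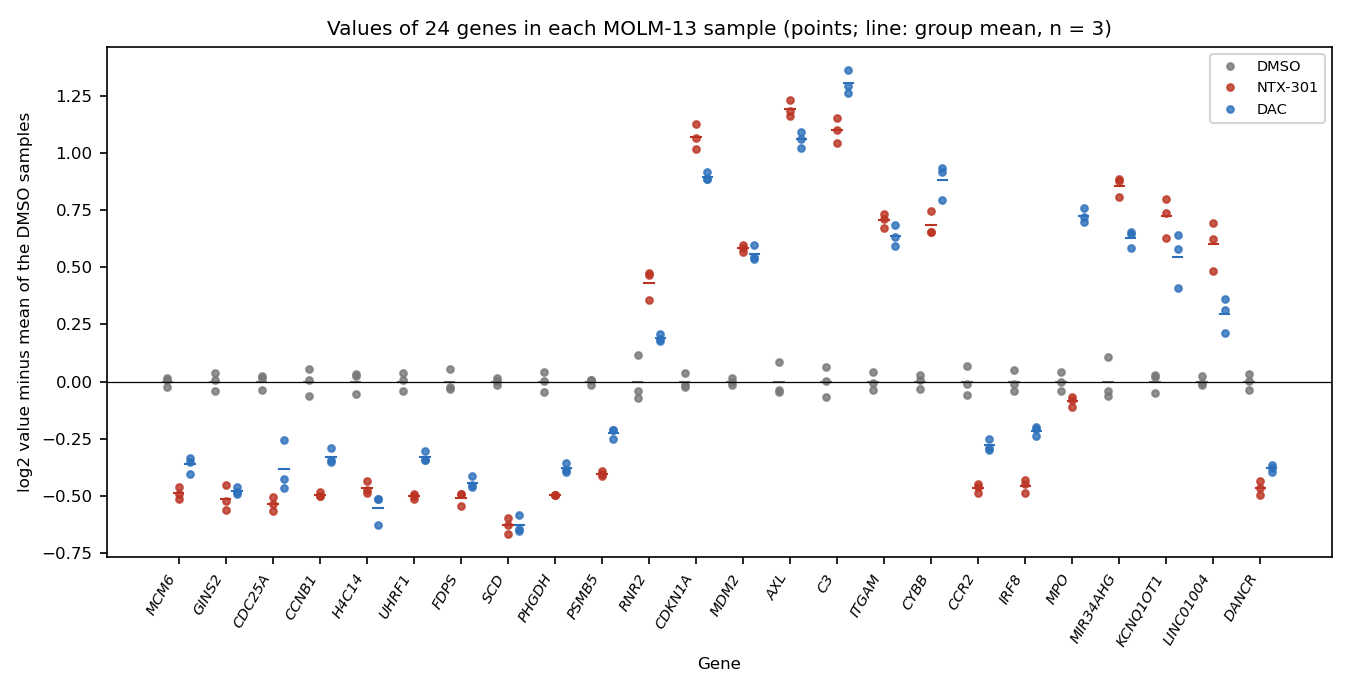
Values of 24 genes in each of the 9 MOLM-13 samples, as log2 value minus the mean of the DMSO samples (y axis); points are samples and short lines group means, n = 3. NTX-301 samples sit apart from DMSO for every gene shown, and MPO is the gene with DAC far above both other groups.

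Several parts of the machinery of protein production fell. Of 79 ribosome biogenesis genes, which act in the nucleolus, 74 fell and none rose (median -0.25). RRP9, of the U3 particle, differed by -0.44, LYAR by -0.46 and NIP7 by -0.43. The nucleolar proteins nucleophosmin (NPM1) and nucleolin (NCL) differed by -0.32 and -0.25. NPM1 had values of 16.90, 17.00 and 16.97 in DMSO and 16.67, 16.61 and 16.62 in NTX-301.

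Of 38 aminoacyl-tRNA synthetase genes 27 fell and none rose, with MARS1 at -0.44 and AARS1 at -0.40. Initiation factors fell in 32 of 55 (58.2%) and rose in 2, with a median of -0.11. This is near the 55.3% lower and the median of -0.098 of all genes with a mean log2 value of 12 or above. After quantile normalization 24 initiation factors fell and 9 rose. Nucleoporins fell in 25 of 30, and 21 fell and 3 rose after quantile normalization. The proteins of the cytosolic ribosome itself differed less: 29 of 87 were called lower and 4 higher, with a median of -0.056. Quantile normalization turned this median to 0.035, with 12 lower and 34 higher, so no direction is given for these genes. Leaving out DMSO replicate 2 or 3, or NTX-301 replicate 2 or 3, left 17 to 19 lower.

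Chaperones and the proteasome also fell. In the HSP70, HSP90 and small heat shock protein list 16 of 21 were lower and 1 higher (median -0.22). HSPA8, the constitutive HSP70, had values of 17.59, 17.69 and 17.67 in DMSO and 17.25, 17.22 and 17.24 in NTX-301, a difference of -0.41 (SE 0.035). The mitochondrial co-chaperonin HSPE1 differed by -0.48. The CCT ring, which folds actin and tubulin, and its partner prefoldin were lower in 13 of 15 genes, TCP1 by -0.38. Of 48 proteasome subunits 42 fell and 1 rose (median -0.25). PSMB5, the chymotrypsin-like catalytic subunit, had values of 12.43, 12.41 and 12.43 in DMSO and 12.02, 12.01 and 12.03 in NTX-301, a difference of -0.40 (SE 0.023, adjusted p = 3.94e-07). PSMC3, an ATPase of the cap, differed by -0.40.

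Nuclear and mitochondrial genes for the same respiratory chain went in opposite directions. Nuclear-encoded complex I genes, assembly factors included, fell in 37 of 46 with none higher (median -0.20). Complexes II to V fell in 41 of 50 with none higher (median -0.19), and mitochondrial ribosomal proteins, which translate the mitochondrial messages, in 72 of 79 with none higher (median -0.24). The complex I subunit NDUFV2 had values of 13.12, 13.21 and 13.19 in DMSO and 12.93, 12.87 and 12.81 in NTX-301, a difference of -0.30 (SE 0.033). The assembly factor NDUFAF4 differed by -0.44, CYC1 and UQCRH of complex III by -0.32 and -0.31, and MRPL14 and MRPL36 of the mitochondrial ribosome by -0.38 each. The tricarboxylic acid cycle was lower in 18 of 22 genes, or 10 after quantile normalization. DLAT, of pyruvate dehydrogenase, differed by -0.45 and fumarase (FH) by -0.41.

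Of the 15 genes listed from the mitochondrial genome, 12 rose and none fell, with a median of 0.25, which was 0.22 after centring and 0.29 after quantile normalization. ND1, a core subunit of complex I, had values of 10.08, 10.06 and 10.12 in DMSO and 10.58, 10.49 and 10.38 in NTX-301, a difference of 0.40 (SE 0.053, adjusted p = 9.77e-05). ATP6 of the ATP synthase rose by 0.34, CYTB of complex III by 0.32 and COX1 of complex IV by 0.25. The mitochondrial ribosomal RNAs RNR1 and RNR2 rose by 0.44 each. RNR2 had values of 12.20, 12.01 and 12.04 in DMSO and 12.56, 12.44 and 12.55 in NTX-301. The 3 not called were ND3 at 0.17, ATP8 at 0.049 and COX3 at 0.012, and the COX3 values overlapped: 15.66, 15.67 and 15.72 in DMSO and 15.76, 15.62 and 15.69 in NTX-301. Together the 15 genes held 0.242% to 0.258% of the summed linear values in DMSO and 0.287% to 0.315% in NTX-301. Nuclear copies of mitochondrial sequence can share reads with these genes, and the ribosomal RNAs also depend on how far libraries were depleted of them; neither was tested.

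**Figure D3:**
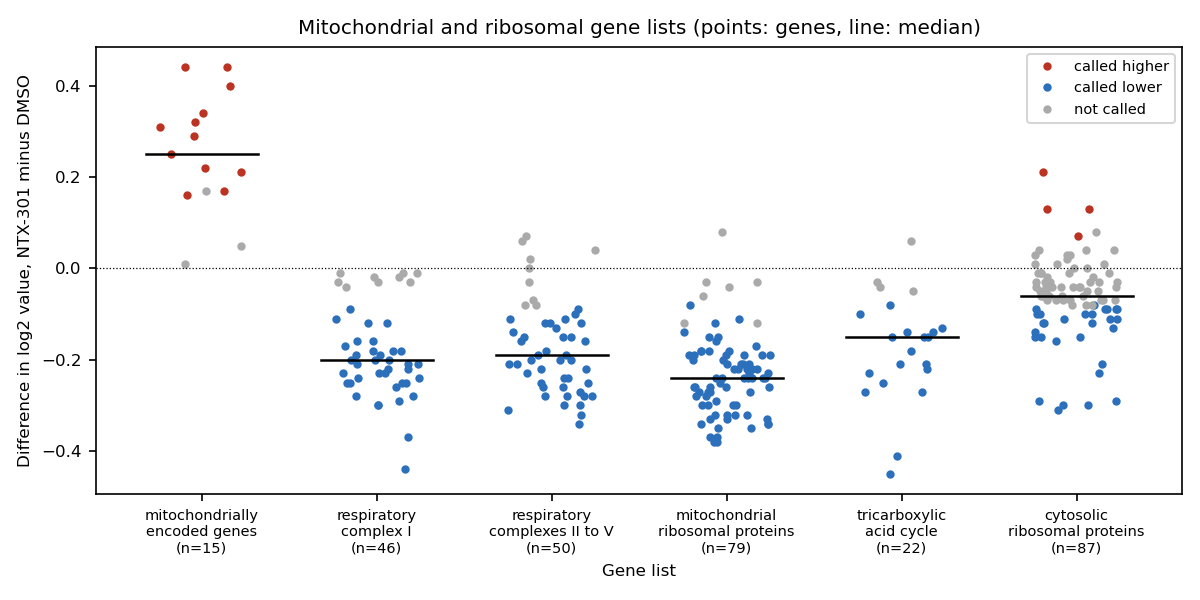
Difference in log2 value (y axis, NTX-301 minus DMSO) of every gene in 6 lists, coloured by call, with the median of each list as a line. The mitochondrially encoded genes lie above 0 with a median of 0.25, and the nuclear-encoded complex I genes lie below 0 with a median of -0.20.

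Lipid synthesis fell. Of 25 genes of sterol synthesis and other targets of the sterol sensor SREBP2, 23 fell and 1 rose, with a median of -0.35. FDPS, which makes farnesyl diphosphate, had values of 13.44, 13.45 and 13.53 in DMSO and 12.98, 12.93 and 12.98 in NTX-301, a difference of -0.51 (SE 0.029, adjusted p = 3.54e-07). INSIG1, which holds SREBP in the endoplasmic reticulum, also differed by -0.51 and HMGCS1, an early enzyme of the pathway, by -0.36. In fatty acid synthesis and desaturation 16 of 21 fell and 1 rose. The delta-9 desaturase SCD had values of 15.61, 15.63 and 15.64 in DMSO and 15.03, 14.96 and 15.00 in NTX-301, a difference of -0.63 (SE 0.026) or 0.645-fold. FADS2, the delta-6 desaturase, differed by -0.68, ACSL3 by -0.55 and fatty acid synthase (FASN) by -0.48.

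Glycolysis was split, with 14 of 26 genes lower (53.8%) and 4 higher and a median of -0.091. Among all genes with a mean log2 value of 12 or above 55.3% were lower, with a median of -0.098. The lactate transporter SLC16A1 differed by -0.46 and PGAM1 by -0.35. HK3, the hexokinase typical of myeloid cells, rose by 0.55, from values of 7.66, 7.80 and 7.68 to 8.17, 8.23 and 8.40.

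Monocyte and macrophage markers rose in 17 of 31 (54.8%), with 5 lower and a median of 0.18, or 14 and 4 after quantile normalization. Of all genes at mean log2 values of 8 to 10, 31.5% rose. AXL, a receptor tyrosine kinase of phagocytes, was the highest protein-coding gene that is not a readthrough transcript: 10.06, 10.19 and 10.07 in DMSO and 11.34, 11.27 and 11.29 in NTX-301, a difference of 1.19 (SE 0.04, adjusted p = 2.24e-08) or 2.29-fold. TREM2, a lipid receptor of macrophages, rose by 0.75, its adaptor TYROBP by 0.61, the costimulator CD86 by 0.74, and the integrin chains ITGAM (CD11b) and ITGAX (CD11c) by 0.71 and 0.69. ITGAM had values of 10.06, 10.14 and 10.09 in DMSO and 10.77, 10.83 and 10.81 in NTX-301. Not all markers went this way: MS4A6A differed by -0.36. The 2 chemokine receptors that separate monocyte subsets went in opposite directions. CCR2, high on classical monocytes, had values of 12.09, 12.22 and 12.14 in DMSO and 11.66, 11.69 and 11.70 in NTX-301, a difference of -0.46. CX3CR1, high on nonclassical monocytes, went from 8.38, 8.33 and 8.33 to 9.05, 8.98 and 9.10, a difference of 0.69.

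Surface and antigen-presenting genes rose in the same manner. Of 47 genes named for CD antigens 24 rose and 5 fell, and of 24 Siglec, LILR and CD300 receptors, many of them inhibitory, 12 rose and 2 fell. The MHC class II and costimulation list rose in 9 of 12 with none lower (5 after quantile normalization). CIITA, the master regulator of class II genes, rose by 0.52, HLA-DRA by 0.37 and the invariant chain CD74 by 0.23. HLA-DRA had values of 9.71, 9.79 and 9.74 in DMSO and 10.16, 10.10 and 10.10 in NTX-301. For MHC class I and peptide loading 5 of 15 rose, against the background of 20.3%, and 4 rose and 1 fell after centring, with HLA-B at 0.21.

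Complement genes rose in 10 of 16 and fell in 1, but 6 rose after quantile normalization and 6 when NTX-301 replicate 2 was left out. C3, the central component, had values of 8.86, 8.93 and 8.99 in DMSO and 10.08, 9.97 and 10.03 in NTX-301, a difference of 1.10 (SE 0.048, adjusted p = 8.03e-08) or 2.14-fold. Properdin (CFP), which stabilises the alternative pathway, rose by 0.59. Of 8 genes of the phagocyte NADPH oxidase, which makes superoxide, 4 were called higher and 3 lower, but 5 higher and 0 lower after quantile normalization. CYBB, its catalytic chain, rose by 0.69 and NCF1 by 0.50. CYBA, the membrane partner of CYBB, was at -0.19, a call lost after quantile normalization. NCF1 has close pseudogene copies and is uncertain.

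Of 7 calcium-binding S100 genes 6 rose, or 5 after centring and 4 after quantile normalization, with a median of 0.28. Of all genes at mean log2 values of 8 to 10, 31.5% rose. S100A11 was higher by 0.34 and S100A6 by 0.28. S100A9 was at 0.30 (adjusted p = 0.0074), and quantile normalization ended this call. Interferon-stimulated genes rose in 29 of 51 with none lower and a median of 0.13, and in 19 without NTX-301 replicate 1. TRIM22, which is also in the p53 list, rose by 0.58, GBP2 by 0.52, IFI6 by 0.41 and the DNA sensor IFI16 by 0.39. ISG15, a ubiquitin-like effector often used as a marker of the response, did not pass the test: 9.17, 9.19 and 9.10 in DMSO and 9.25, 9.32 and 9.10 in NTX-301 (difference 0.067, adjusted p = 0.391).

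Genes of the lysosome rose in 23 of 48 and fell in 5, with a median of 0.077. DNASE2, the nuclease that digests engulfed DNA, had values of 8.96, 8.87 and 9.13 in DMSO and 9.68, 9.68 and 9.66 in NTX-301, a difference of 0.68 (SE 0.058). IDS, an iduronate sulfatase, rose by 0.56, CD68 by 0.46 and progranulin (GRN) by 0.42. Among 13 cathepsins 7 rose and 1 fell (5 and 0 after quantile normalization), with CTSD at 0.33 and CTSB at 0.18. The membrane protein LAMP1 was at -0.18, a call lost after quantile normalization.

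The list of azurophil and specific granule proteins did not move one way as defined here. Of 17, 6 rose and 3 fell, or 5 and 4 after centring. BPI rose by 0.30 and azurocidin (AZU1) by 0.20, while IGLL1 differed by -0.56 and PRG2 by -0.46. IGLL1 is an immunoglobulin-like light chain and not a granule protein, and PRG2 belongs to eosinophil granules, so these falls do not describe neutrophil granules. PRG2 had values of 14.78, 14.87 and 14.85 in DMSO and 14.40, 14.36 and 14.35 in NTX-301. It is a defining eosinophil gene, and the summed linear values of the 4 eosinophil markers fell from between 29200 and 30800 to between 21900 and 22600. Of the 4, PRG2 was the 1 called, and its part in other results was not tested. Myeloperoxidase (MPO) was at -0.087 (adjusted p = 0.017), with 13.08, 13.00 and 13.04 in DMSO and 12.96, 12.97 and 12.93 in NTX-301. Lysozyme (LYZ) was at 0.12 (adjusted p = 0.0165). The MPO call was lost without DMSO replicate 1 or 3 or NTX-301 replicate 3, the LYZ call without DMSO replicate 1 or NTX-301 replicate 1, and MPO was at 0.014 after quantile normalization.

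Transcription factors of the lineage moved in both directions, with 10 of 30 higher and 2 lower. The 2 that fell were IRF8, needed for monocytes and dendritic cells (14.35, 14.44 and 14.38 in DMSO and 13.94, 13.96 and 13.90 in NTX-301, a difference of -0.46), and CEBPG at -0.28. ETV6 rose by 0.31, CEBPE by 0.30 and RUNX1 by 0.25. The pioneer factor SPI1 (PU.1) was at 0.11 and did not pass the test. Genes of stem and progenitor cells were split, with 5 of 16 higher and 5 lower. FLT3, the mutated kinase of this line, had values of 15.16, 15.24 and 15.20 in DMSO and 14.99 in each NTX-301 sample, a difference of -0.21 (SE 0.025). The interleukin-3 receptor chain IL3RA differed by -0.19 and HOXA10 by -0.17. HOXA9, which KMT2A fusions drive, was at -0.11 (adjusted p = 0.102), with 12.43, 12.46 and 12.41 in DMSO and 12.48, 12.25 and 12.23 in NTX-301. Its partner MEIS1 was at 0.11 (adjusted p = 0.0174), a call lost after median centring and without DMSO replicate 1 or NTX-301 replicate 2 or 3. The readthrough gene HOXA10-HOXA9 was at 1.14 (SE 0.34, adjusted p = 0.0157), uncertain because it shares reads with both. HOXA10-HOXA9 had NTX-301 values of 6.96, 8.42 and 8.47, and the call was lost with no mean-variance trend and without DMSO replicate 2 or NTX-301 replicate 2 or 3.

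Signalling genes gave single movers rather than a shared direction. Receptor tyrosine kinases were 8 higher and 6 lower of 22 (6 and 7 after centring, 4 and 7 after quantile normalization), with CSF1R, the macrophage growth factor receptor, at 0.39, RET at 0.36 and ERBB4 at -0.61. ERBB4 had values of 9.05, 8.97 and 9.13 in DMSO and 8.45, 8.42 and 8.42 in NTX-301. Of 22 dual-specificity phosphatases, Sprouty and Spred genes, brakes on MAP kinases, 5 rose and 8 fell, or 3 and 9 after centring. DUSP10, which acts on JNK and p38, rose by 0.87 (SE 0.089), while DUSP2 differed by -0.45. Among 22 immediate-early genes 7 rose and 5 fell: EGR1 was at -0.54, ATF3 at 0.42 and NR4A1 at 0.39. EGR1 had values of 11.19, 11.01 and 10.85 in DMSO and 10.50, 10.51 and 10.43 in NTX-301.

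Cancer-testis genes, which methylation keeps silent in most tissues, gave few rises. Of 9 listed cancer-testis genes PIWIL4, of the piRNA pathway, rose by 0.21. XAGE1A and XAGE1B, near-identical copies whose reads cannot be separated, were both at -0.18. Genes without reads in some sample seem to have been left out of the files, so a gene silent in DMSO could be absent. Of 21 imprinted genes 8 rose (38.1%) and 2 fell, or 6 and 4 after centring and 5 and 3 after quantile normalization. Their median level was 7.7. Of all genes 27.2% rose at mean log2 values of 5 to 8 and 31.5% at 8 to 10. KCNQ1OT1, a noncoding RNA made from 1 parental allele, had values of 9.90, 9.89 and 9.82 in DMSO and 10.50, 10.67 and 10.61 in NTX-301, a difference of 0.73 (SE 0.06, adjusted p = 3.31e-06). The transporter SLC22A18 rose by 0.36 and GNAS by 0.25, while GRB10 differed by -0.19 and MEST by -0.17. Leaving out DMSO replicate 1 or NTX-301 replicate 1 gave 5 imprinted genes higher. Collagens rose in 11 of 14, COL9A2 by 0.49, but 7 rose without DMSO replicate 2 or 3 or NTX-301 replicate 1, and 5 after either other scaling. COL8A2 differed by -0.42.

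The remaining genes named for the size of their difference were keratin KRT17 (0.97), LOC107984747 (0.97) and LOC107984434 (0.96) among the highest. KRT17 had values of 7.34, 7.23 and 7.36 in DMSO and 8.21, 8.27 and 8.36 in NTX-301. Among the lowest were HPDL, a dioxygenase-like mitochondrial enzyme (-0.61), the alanine transaminase GPT2 (-0.59), the mitotic kinase PBK (-0.59) and SHISA2 (-0.56). RNA28SN3, a copy of the large ribosomal RNA, was at 1.90 but is uncertain: its DMSO values were 10.51, 9.15 and 9.52, and the copies of ribosomal RNA share reads.

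By biotype, protein-coding and noncoding genes differed in which way they went. Of 12269 protein-coding genes 2412 rose (19.7%) and 4152 fell (33.8%). Of 2153 long noncoding RNA (lncRNA) genes 639 rose (29.7%) and 60 fell (2.79%), with a median of 0.055. The excess of rises was smaller under other scaling, with 494 higher and 129 lower after centring and 314 and 147 after quantile normalization, and the median stayed above 0 at 0.025 and 0.011. Transcribed pseudogenes gave 138 higher and 16 lower of 476, 107 and 51 after centring, and 72 and 39 after quantile normalization. For pseudogenes the median of 0.011 turned to -0.02 after centring and -0.002 after quantile normalization, so no direction is given. The lncRNA genes held 1.47%, 1.43% and 1.43% of the summed linear values in the DMSO samples and 1.79%, 1.86% and 1.85% in NTX-301. These groups did not overlap, and the 3 DAC samples held 1.66%, 1.73% and 1.83%.

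Because lncRNAs are low and the test finds less in low genes, the classes were also set side by side at like levels. Among genes with a mean log2 value of 10 to 12, 58.6% of 99 lncRNA genes rose and 15.2% fell, against 19.1% and 39% of 4309 protein-coding genes. At 8 to 10 the shares were 49.4% and 5.03% of 318 lncRNA genes against 28.6% and 14.8% of 1945 protein-coding genes. At 5 to 8 the shares were close, with 30.7% and 1.92% against 28% and 2.43%. The falls of protein-coding genes were concentrated at high levels, 2136 of 3818 genes with a mean of at least 12.

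**Figure D4:**
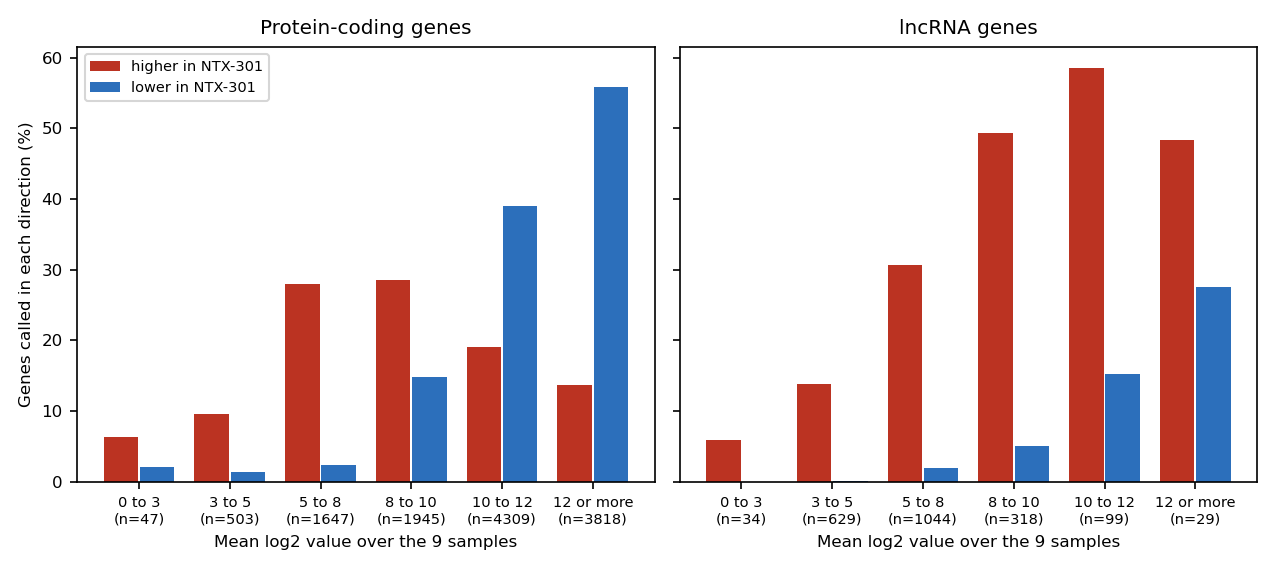
Share of genes called higher (red) and lower (blue) in NTX-301 than in DMSO (y axis, %) by class of mean log2 value (x axis), for protein-coding and lncRNA genes. Falls of protein-coding genes rise with level to 55.9%, while lncRNA genes at 8 to 12 were mostly higher.

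Among named classes of lncRNA 31% of LINC, 16.3% of antisense and 27.8% of divergent, intronic or overlapping genes rose. Their median levels were 6.03, 6.16 and 5.99, and 27.2% of all genes at 5 to 8 rose. The shares were thus near or below that of all genes at this level. Of 216 LINC genes 67 rose and 6 fell, or 28 and 14 after quantile normalization. LINC01004 had values of 9.85, 9.81 and 9.82 in DMSO and 10.31, 10.52 and 10.45 in NTX-301, a difference of 0.60 (SE 0.054), LINC02256 was at 0.57 and LINC00565 at -0.46. Of 356 antisense genes 58 rose and 16 fell, but centring gave 44 and 35, and quantile normalization gave 26 and 38 and turned the median from 0.034 to -0.011. UFL1-AS1 rose by 0.54 and CCDC18-AS1 by 0.47. Of 90 divergent, intronic or overlapping transcripts 25 rose and 3 fell (21 and 6 after centring, 17 and 8 after quantile normalization), with ANP32A-IT1 at 0.67 and RUNX1-IT1 at 0.64, both named for the intron they lie in. The use of strand in counting was not given in the sources used here, so reads of an antisense or intronic gene and its host cannot be told apart.

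Hosts of microRNAs rose in 8 of 19 (42.1%) and fell in 1, or 6 and 2 after centring. Their median level was 7.44, and 27.2% of all genes at mean log2 values of 5 to 8 rose. Hosts of small nucleolar RNAs (snoRNAs) hold the guide RNAs of ribosome modification in their introns. Of 29 such hosts 12 fell (41.4%) and 3 rose, or 13 and 7 after quantile normalization. This share is near the 37.9% of all genes at 10 to 12 that fell. SNHG1 had values of 13.14, 13.20 and 13.06 in DMSO and 12.81, 12.86 and 12.82 in NTX-301, a difference of -0.30. DANCR differed by -0.47 (SE 0.028) and SNHG7 by -0.33, while GAS5 was at 0.13. MIR34AHG, the host of the p53-induced microRNA miR-34a, had values of 9.27, 9.10 and 9.12 in DMSO and 9.97, 10.04 and 10.05 in NTX-301, a difference of 0.86 (SE 0.05, adjusted p = 3.95e-07) or 1.81-fold. MIR181A1HG rose by 0.34, MIR29B2CHG by 0.31 and MIRLET7BHG by 0.28. The mature microRNAs were not measured by this assay; those carried by 3 of these hosts are shown from RefSeq, seed (bases 2 to 8) in capitals, and the pairs of miR-181 and of miR-29 share their seed. All lie on the minus strand of GRCh38.p14: miR-34a-5p at chr1:9151735-9151756, miR-181a-5p at chr1:198859108-198859130, miR-181b-5p at chr1:198858925-198858947, miR-29b-3p at chr1:207802450-207802472 and miR-29c-3p at chr1:207801865-207801886.
hsa-miR-34a-5p: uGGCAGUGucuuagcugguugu
hsa-miR-181a-5p: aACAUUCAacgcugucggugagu
hsa-miR-181b-5p: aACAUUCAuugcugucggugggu
hsa-miR-29b-3p: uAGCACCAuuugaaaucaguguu
hsa-miR-29c-3p: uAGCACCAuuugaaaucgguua

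Small RNAs showed little that held across scaling. Of 214 C/D box snoRNAs, which guide ribose methylation of ribosomal RNA, 13 rose and 19 fell, and 57 fell after either other scaling, with 1 or 2 higher. Of 126 H/ACA snoRNAs, which guide pseudouridylation, 6 rose and 6 fell, 1 and 34 after centring and 1 and 29 after quantile normalization. SNORD17 rose by 0.49, SNORD47 was at -0.21 and SNORA73A at 0.22. Of 27 Cajal body RNAs, which guide changes of spliceosomal RNAs, 7 rose (25.9%) and none fell, or 6 and 1 after centring. Their median level was 6.56, and 27.2% of all genes at mean log2 values of 5 to 8 rose. The share was thus near that of all genes at this level, and quantile normalization turned the median below 0. SCARNA13 rose by 0.58, SCARNA2 by 0.40 and SCARNA21 by 0.39. SCARNA2 had values of 13.26, 13.13 and 13.05 in DMSO and 13.55, 13.60 and 13.50 in NTX-301. The ribosomal RNA precursor copy RNA45SN1 was at 0.56, and all ribosomal RNA genes together held 0.113% to 0.135% of the summed linear values in DMSO and 0.178% to 0.195% in NTX-301. Such RNA is left over from depletion in libraries of this kind, and its part in the results was not tested. Of 392 ZNF zinc finger genes, many of them repressors of repeats, 119 rose and 40 fell (98 and 59 after centring), with a median of 0.046. ZNF875 and ZNF469 rose by 0.43 each.

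NTX-301 and DAC were then set side by side within MOLM-13, in the same fit. Here 7.42% of genes were called, 3.01% higher in NTX-301 than in DAC and 4.41% lower. These counts rest on single wells: 526 higher and 771 lower became 183 and 296 without NTX-301 replicate 2, 179 and 283 without NTX-301 replicate 3, 287 and 480 without DAC replicate 1 and 298 and 586 without DAC replicate 2. Dose was not matched for certain, so a difference belongs to these samples as treated.

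Lists for protein quality and glycolysis had larger shares of members lower in NTX-301 than in DAC than all genes had. Of all genes 4.41% were lower. By level, 286 of 4552 genes were lower at mean log2 values of 10 to 12 and 384 of 3893 at 12 or above. In the heat shock list 10 of 21 were lower, in glycolysis 11 of 26, in the ATF4 list 9 of 23, among tubulins 6 of 17 and among proteasome subunits 16 of 48, with none higher in any of them. Leaving out 1 sample at a time lowered these counts to 4, 5, 3, 1 and 6 at the least, with the lowest reached without DAC replicate 1 for heat shock, without NTX-301 replicate 3 for the proteasome and without NTX-301 replicate 2 for the rest. PSMC3 was at 12.92, 12.97 and 12.85 in DAC, above its 12.70, 12.67 and 12.74 in NTX-301, a difference of -0.21 (95% interval -0.28 to -0.14, adjusted p = 0.00321). PGAM1 gave -0.21 (-0.26 to -0.15).

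Part of the myeloid lists was also lower in NTX-301 than in DAC, against 4.41% of all genes. By level, 64 of 2537 genes were lower at mean log2 values of 8 to 10 and 384 of 3893 at 12 or above. Of the monocyte and macrophage markers 7 of 31 (22.6%) were lower and 0 higher. In the granule list 6 of 17 (35.3%) were lower and 1 higher. MPO reached 13.76, 13.80 and 13.74 in DAC and 12.96, 12.97 and 12.93 in NTX-301, a difference of -0.81 (95% interval -0.87 to -0.75, adjusted p = 2.44e-08). LYZ differed by -0.66 (-0.74 to -0.58), S100A9 by -0.49 (-0.66 to -0.33), DNASE2 by -0.47 (-0.60 to -0.34) and CEBPE by -0.35 (-0.49 to -0.22). Outside the myeloid lists, the collagen COL8A2 differed by -0.53 (-0.59 to -0.47). For other markers no difference between the drugs was called. ITGAM gave 0.072 (-0.0071 to 0.15), TREM2 0.019 (-0.082 to 0.12) and AXL 0.13 (0.04 to 0.22, adjusted p = 0.0795). These intervals bound the difference and do not show that the drugs act alike.

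Of the histone genes 12 of 63 (19%) were higher in NTX-301 than in DAC with none lower, or 5 without NTX-301 replicate 2. Of all genes 3.01% were higher, with 199 of 3893 at mean log2 values of 12 or above. The median difference was 0.086, while both drugs had medians below DMSO (-0.32 for NTX-301 and -0.4 for DAC). RNR1 and RNR2 were higher by 0.29 (0.19 to 0.40) and 0.25 (0.14 to 0.35). CDKN1A was higher in NTX-301 by 0.17 (0.11 to 0.24, adjusted p = 0.00593) and MIR34AHG by 0.23 (0.12 to 0.34), while MDM2 differed by 0.022 (-0.029 to 0.074). UHRF1 was lower by -0.18 (-0.23 to -0.12), and DNMT1 gave -0.079 (-0.13 to -0.028, adjusted p = 0.0624). SCD and FADS2 gave -0.0012 (-0.059 to 0.057) and 0.02 (-0.097 to 0.14), while FASN was lower in NTX-301 by -0.22 (-0.31 to -0.14).

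The genes with the largest differences from DAC were MPO and LYZ, with KTI12 at -1.01 (-1.57 to -0.45) and the chemokine CXCL8 at -0.62 (-0.90 to -0.34), and on the other side RNA28SN3 at 1.63, the adenosine receptor ADORA2A at 0.84 (0.45 to 1.24), LOC107985430 at 0.56 (0.38 to 0.75) and RIPOR2 at 0.45 (0.27 to 0.63). Several of these rest on single wells. KTI12 had values of 8.28, 9.17 and 8.36 in NTX-301 and 9.45, 9.69 and 9.70 in DAC, and its call was lost without any 1 of the DAC replicates or NTX-301 replicate 1 or 3. The CXCL8 call was lost without NTX-301 replicate 3, that of ADORA2A without DAC replicate 3 or any 1 of the NTX-301 replicates, and that of RNA28SN3 without DMSO replicate 3, DAC replicate 2 or 3 or any 1 of the NTX-301 replicates. All 4 calls were also lost when the fit had no mean-variance trend. LOC107985430 had values of 8.96, 9.25 and 9.27 in NTX-301 and 8.55, 8.51 and 8.74 in DAC, which do not overlap.

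**Figure D5:**
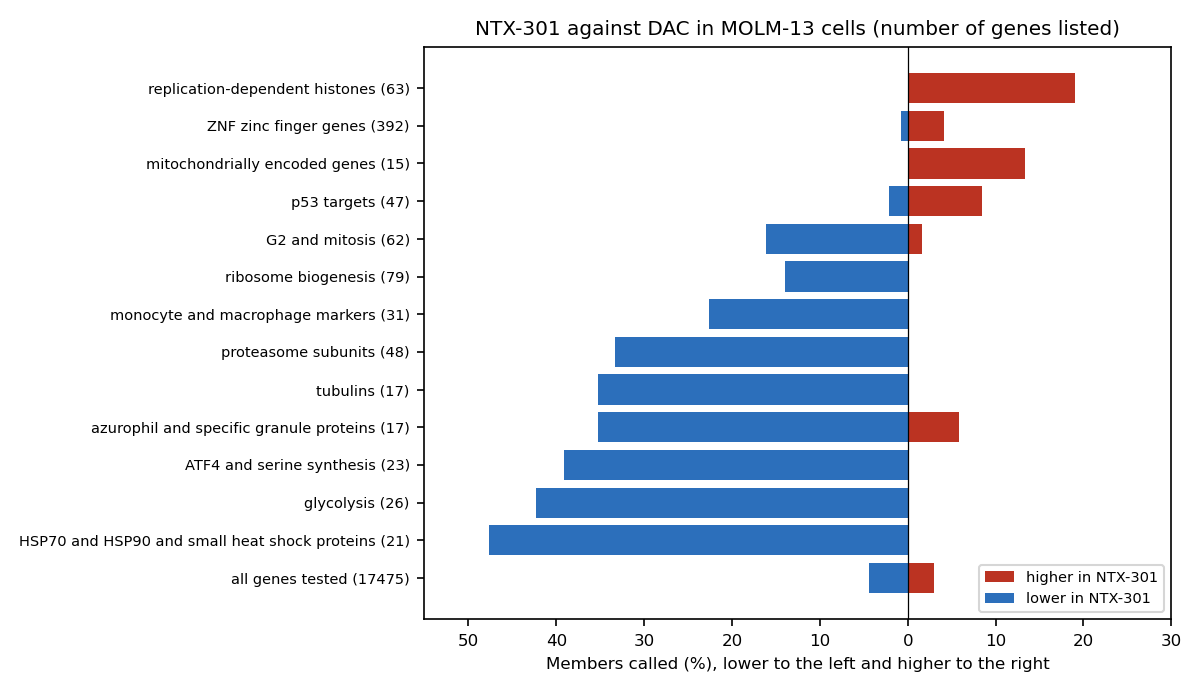
Share of list members (x axis, %) called higher (red, right) or lower (blue, left) in NTX-301 than in DAC, with the number of genes listed. Heat shock, glycolysis and ATF4 lists have the largest shares lower (47.6%, 42.3% and 39.1%). Histones have 19% higher, and all genes tested have 3.01% higher and 4.41% lower.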

How the data were processed

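Each sample's file held 1 value per gene, which the authors deposited as normalized log2 values. Per the submitters' processing notes, FastQC, Trimmomatic 0.38, HISAT2, StringTie and hg19 were used. The normalization is not given in the sources used here. Depth is unknown.

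The 9 MOLM-13 samples were fitted with limma 3.58.1 in R 4.3.3 (a mean per group, empirical Bayes with a mean-variance trend, 6 residual degrees of freedom, two-sided), with Benjamini-Hochberg adjustment across the 17475 genes. The filter (a linear value of 1 in 3 samples) removed 0 genes. On simulated data limma recovered 70.1%, 95.5% and 98.5% of differences of 0.25, 0.5 and 1, with 10 false calls among 17475 genes. Only 67, 67 and 66 genes were changed by these sizes, and noise was independent between genes, with no shift shared within a well. In the data 45.1% of genes were called, so these figures do not give the sensitivity or error of the reported calls.

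The members and the 110 gene lists were chosen with earlier results of these data known. After values were seen, 5 symbol patterns were corrected for genes wrongly caught: cancer-testis, respiratory complexes II to V, microRNA precursors, elongation factors and ribosomal RNA. Lists are described without a test, and which of them to describe was chosen after their values were seen. Named genes were the 8 highest and 8 lowest called, up to 4 called members per list with the largest differences, the genes of a fixed list of 30 (some are not reported here), and the 4 highest and 4 lowest against DAC, with further members of the lists named after their values were seen. Alternatives were median centring, quantile normalization, no filter, a higher filter, no trend, fewer groups, a replicate block, a minimum difference and leaving out each sample. Python 3.11.15 made the summaries.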

Additional observations from a re-analysis of the deposited data

How the results depend on the processing

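The replicate numbers did not pair the samples, since same-numbered DMSO and NTX-301 samples correlated at 0.00355, 0.0165 and -0.0277 in their deviations. With a replicate block, 3389 genes were higher and 4102 lower than in DMSO, and 330 higher and 487 lower than in DAC. Requiring a difference of at least 0.25 left 1106 and 1214 against DMSO and 81 and 87 against DAC. Leaving out 1 sample gave 2864 to 3614 higher and 3753 to 4415 lower than in DMSO, and 179 to 515 higher and 283 to 807 lower than in DAC. Centring and quantile normalization kept both counts against DMSO within 1.5 times, and no filter changed none.

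Medians that changed sign after quantile normalization were those of cytosolic ribosomal proteins (0.035), antisense lncRNAs (-0.011), C/D (-0.042) and H/ACA (-0.028) snoRNAs, Cajal body RNAs (-0.002) and pseudogenes (-0.002). Centring turned C/D and H/ACA snoRNAs to -0.029 each, pseudogenes to -0.02 and microRNA genes to -0.022. A mean log2 value of at least 5 turned C/D and H/ACA snoRNAs to -0.028 and -0.026. Leaving out 1 sample put C/D snoRNAs between -0.0024 and 0.00078, below 0 without DMSO replicate 3 (-0.00077) or NTX-301 replicate 2 or 3 (-0.0012 for the last). Of single genes, quantile normalization turned MKI67 (0.023), TYMS (0.079), ISG15 (-0.021), MPO (0.014) and ATP8 (-0.036). Centring turned COX3 (-0.018) and MCM9 (-0.011). Leaving out 1 sample put TYMS between -0.049 and 0.0057 (above 0 without NTX-301 replicate 3), COX3 between -0.024 and 0.047 (below 0 without NTX-301 replicate 1) and MCM9 between -0.011 and 0.036 (below 0 without NTX-301 replicate 2). DNMT3A, HOXA9, ND3, ORC4, PMAIP1, SPI1 and MCM9, not called as reported, passed under 1 to 5 alternatives each. The cause was not tested. Depth being unknown, no counting error is given, and differences of low genes were small.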
